A study of Danio rerio with 24 samples.

Results

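The comparison described here set GFP+ cells sorted from zebrafish embryos at 3 days post fertilization (dpf) against GFP+ cells sorted at 2 dpf, with 3 arrays a group. These 6 arrays were chosen by their labelled age and gate out of 24 arrays in the series, and all 15502 probe sets other than array controls were tested. Both groups came from homozygous embryos of the line Tg(XlEef1a1:GFP)s854, in which a GFP transgene carrying an elongation factor promoter from Xenopus laevis is bright in the digestive organs. All embryos of both groups and of the other groups were kept in 0.003% 1-phenyl-2-thiourea (PTU), which blocks melanin formation. Embryos were dissociated with proteases and a tissue grinder, and the cells were sorted by GFP. The GFP- cells of 3 dpf and 2 dpf embryos (3 arrays each) served here as the rest of the embryo at the same ages, and GFP+ cells of 4 and 6 dpf (3 arrays each) are given for the later course only. The line is defined by where its GFP is bright, so a GFP+ sample mixes liver, pancreas, intestine and any other cell that passed the gate.

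The liver, the pancreas and the intestinal lining of the zebrafish all arise from endoderm. Acinar cells of the exocrine pancreas make digestive enzymes as inactive precursors, the zymogens, and store them until feeding. Hepatocytes secrete carrier proteins, protease inhibitors, clotting factors and complement into the blood and carry much of the catabolism of the animal, while enterocytes take up lipid and peptides. Endocrine cells of the pancreatic islet make insulin, glucagon and somatostatin and appear earlier than acinar enzymes.

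Each value is a deposited score. Every array had a median score of 0 and a standard deviation of 1, so a score of 1 means 1 array standard deviation (SD) above the middle probe set of that array. The log base of the values is not given in the sources used here, so differences are in array SD and no fold changes are given. A gene is represented by its brightest probe set, and "called" means an adjusted p under 0.05 by limma's moderated test with Benjamini-Hochberg adjustment over all probe sets. Errors of differences are standard errors (SE). The number of arrays limits the precision. Samples of bulk RNA cannot tell fewer cells of a type from less RNA per cell, which holds for every difference below.

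The endoderm marker foxa3 scored 1.03, 1.08 and 1.12 in GFP+ cells, against -0.18, -0.05 and -0.02 in GFP- cells at 3 dpf. At 2 dpf it scored 1.43, 1.35 and 0.98 in GFP+ cells, against -0.13, -0.25 and -0.38 in GFP- cells. The gates did not overlap in either age. Array probe sets for EGFP stayed between -0.83 and -0.37 in the GFP+ cells of both ages and gave no check of the sort. The score of the GAPDH 3' control minus that of the 5' control, a sign of RNA length, was 0.296, 0.0968 and 0.429 at 3 dpf, against 0.755, 0.40 and 0.527 at 2 dpf. Arrays of 1 group correlated between 0.950 and 0.979, and 3 dpf with 2 dpf arrays between 0.927 and 0.967. The third 3 dpf array correlated with 2 dpf arrays 1 to 3 at 0.964, 0.9666 and 0.9656. With 3 dpf arrays 1 and 2 it correlated at 0.9755 and 0.9624. The first 2 dpf array scored well below the other 2 dpf arrays in single genes of some non-digestive tissues. The lens gene cryba4 scored -0.31, 1.28 and 1.32 on 2 dpf arrays 1 to 3, the inner ear gene oc90 scored 0.10, 1.59 and 1.25, and the fast muscle myosin gene myhz1.3 scored -0.33, 1.44 and 1.12. The third 2 dpf array alone was high in the heart myosin gene myl7, which scored -0.37, -0.14 and 1.18. Over whole lists, the first 2 dpf array was not low throughout. Its mean was the lowest of the 3 in muscle (0.22, 0.49 and 0.54 on arrays 1 to 3). It was the highest in retina and lens (-0.02, -0.15 and -0.19), neurons and glia (0.22, 0.13 and 0.03) and epidermis (1.24, 1.17 and 1.04). The part that cells of these tissues play in the differences was not tested.

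Between the ages, 128 of 15502 probe sets were called (0.826%), of which 83 were higher (0.535%) and 45 lower (0.29%) at 3 dpf. Without adjustment, 1352 probe sets had a p under 0.05. In genes, 96 of 8793 were called (1.09%), 60 higher (0.682%) and 36 lower (0.409%), and 7 of the 96 have placeholder symbols. At an unadjusted p under 0.05 the balance was the other way, with 421 genes higher and 512 lower. The higher genes reached larger differences, since 57 called probe sets were higher and 15 lower by at least 1 array SD. For 29 of the 60 higher genes the mean at 2 dpf lay below the array median. Over all genes the median difference was -0.037 array SD.

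Of 22 measured genes of zymogens and acinar enzymes, 9 rose, against 0.682% of all genes, none fell, and the median difference was 1.23 array SD, against -0.037 over all genes. In 19 of the 22 every 3 dpf array was above every 2 dpf array, which held for 6.86% of all genes. The mean score over the 22 genes was 1.73, 1.38 and 1.5 on the 3 dpf arrays, against 0.227, 0.0847 and 0.0713 on the 2 dpf arrays.

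The elastase genes give the pattern. ela2l, which encodes an elastase, scored 2.62, 2.2 and 2.58 at 3 dpf, against -0.45, -0.30 and -0.43 at 2 dpf. The groups did not overlap, and the difference of 2.86 ± 0.42 was the largest of all genes called (adjusted p = 0.000921). ela2 scored 2.53, 1.88 and 2.31 at 3 dpf, against -0.22, -0.54 and -0.33 at 2 dpf (difference 2.60 ± 0.39, adjusted p = 0.00115). ela3l scored 2.54, 2.34 and 2.21 at 3 dpf, against -0.03, 0.01 and -0.04 at 2 dpf (difference 2.39 ± 0.34, adjusted p = 0.000674). All 3 lay at or below the middle of the array at 2 dpf and among its brighter probe sets at 3 dpf. cela1.6 was already above the array median at 2 dpf, where it scored 1.66, 1.07 and 0.67, and it reached 3.16, 2.55 and 3.03 at 3 dpf. Its difference of 1.78 ± 0.39 was called (adjusted p = 0.0266). That call was lost in 5 of 6 fits that each left out 1 array, all but the one without 2 dpf array 1, with adjusted p of 0.0574 to 0.159.

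Other hydrolases rose alongside. cpa5, which encodes a carboxypeptidase A, scored 3.04, 2.59 and 2.80 at 3 dpf, against 0.21, -0.11 and -0.14 at 2 dpf. This gave a difference of 2.83 ± 0.42 (adjusted p = 0.00102). The chymotrypsinogen gene ctrb.1 scored 3.27, 2.94 and 3.17 at 3 dpf, against 0.84, 0.66 and 0.47 at 2 dpf (difference 2.47 ± 0.32, adjusted p = 0.000371), and so was above the median before it rose. The related gene ctrl started lower, with 2.4, 1.82 and 2.14 at 3 dpf, against 0.03, -0.37 and -0.30 at 2 dpf (difference 2.33 ± 0.40, adjusted p = 0.004). cel.1, a bile salt-stimulated lipase gene, scored 2.33, 2.08 and 2.00 at 3 dpf, against -0.40, -0.22 and -0.41 at 2 dpf (difference 2.48 ± 0.39, adjusted p = 0.00151). No array of one age overlapped the other in these 4 genes. sycn.2 encodes syncollin, a protein of the zymogen granule, and scored 1.84, 1.2 and 1.62 at 3 dpf, against -0.24, -0.26 and -0.42 at 2 dpf. Its difference of 1.86 ± 0.38 was called (adjusted p = 0.0167) but not without 3 dpf array 1, 2 dpf array 2 or 2 dpf array 3 (adjusted p of 0.0678 to 0.118). Of the 9 calls, the 7 other than those of cela1.6 and sycn.2 held with each of the 6 arrays left out in turn. Closely related protease genes can share probe sequence, and cross-hybridization among them was not checked.

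**Figure D1:**
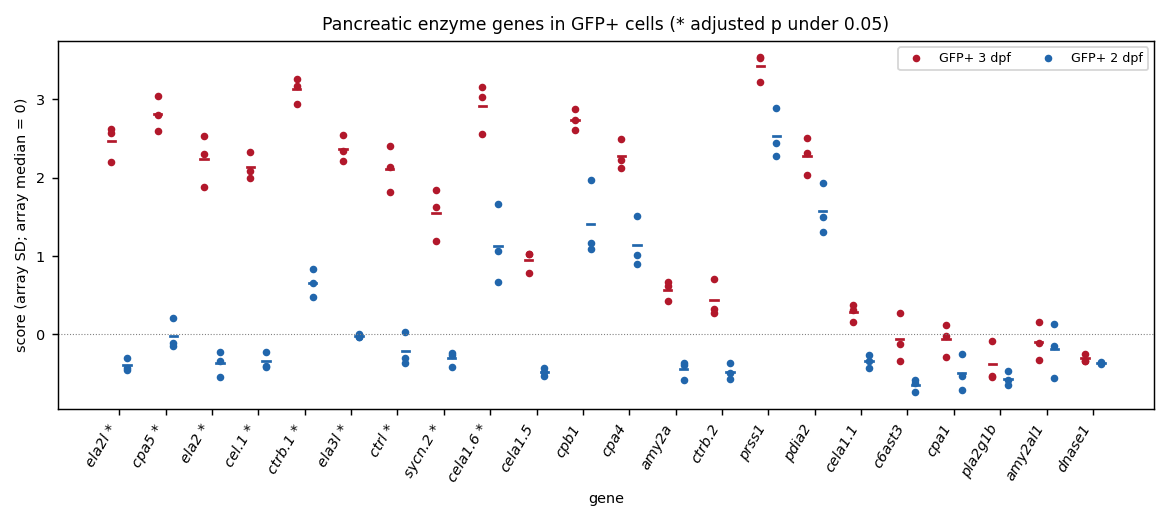
Scores (y axis, array SD) of the 22 measured pancreatic enzyme genes (x axis, ordered by difference) on each GFP+ array, with 3 dpf left of 2 dpf for each gene and short lines at group means. The 9 starred genes at the left include ela2l, where 3 dpf arrays lie at 2.2 to 2.62 and 2 dpf arrays at -0.45 to -0.30, while prss1 is above 2 at both ages.

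Other enzyme genes were not called. The trypsinogen gene prss1 scored 3.53, 3.22 and 3.54 at 3 dpf, against 2.89, 2.27 and 2.44 at 2 dpf, and its difference of 0.90 ± 0.30 was not called (adjusted p = 0.253). The carboxypeptidase B gene cpb1 also scored above 1 at 2 dpf, with 2.73, 2.87 and 2.60 at 3 dpf, against 1.97, 1.17 and 1.09 at 2 dpf (difference 1.33 ± 0.32, adjusted p = 0.0615). The amylase gene amy2a scored 0.67, 0.62 and 0.42 at 3 dpf, against -0.59, -0.37 and -0.39 at 2 dpf (difference 1.02 ± 0.42, adjusted p = 0.434). The secreted phospholipase gene pla2g1b was below the array median on all 6 arrays, with -0.08, -0.53 and -0.54 at 3 dpf, against -0.64, -0.58 and -0.47 at 2 dpf. It averaged 2.24 at 4 dpf and 3.61 at 6 dpf. The carboxypeptidase gene cpa1 averaged 1.82 at 4 dpf and 3.44 at 6 dpf, and its 3 dpf and 2 dpf arrays overlapped.

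Of 22 measured plasma carriers and inhibitors of the liver, 3 rose, against 0.682% of all genes, none fell, and the median difference was 0.68 array SD. At an unadjusted p under 0.05, 13 of the 22 were higher and none lower, beside 421 and 512 of all 8793 genes. The count of 3 changed to 9 on the 6 compared arrays alone. shbg, which encodes the sex hormone-binding globulin of plasma, scored 2.09, 1.82 and 1.6 at 3 dpf, against a value near 0, -0.37 and -0.23 at 2 dpf (difference 2.04 ± 0.33, adjusted p = 0.00212). agt encodes angiotensinogen and scored 2.17, 1.95 and 1.71 at 3 dpf, against 0.28, 0.21 and 0.81 at 2 dpf (difference 1.51 ± 0.30, adjusted p = 0.0136). itih3b.1, an inter-alpha-trypsin inhibitor heavy chain, scored 1.37, 1.54 and 1.09 at 3 dpf, against 0.14, -0.19 and 0.02 at 2 dpf (difference 1.35 ± 0.25, adjusted p = 0.00829). The ages did not overlap in these 3 genes. The call of shbg held with each array left out. That of agt was lost without 3 dpf array 1 or 2 or without 2 dpf array 1 or 2 (adjusted p of 0.0608 to 0.107). That of itih3b.1 was lost without 3 dpf array 1 or 2 or 2 dpf array 2 (adjusted p of 0.0507 to 0.0737).

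Commonly used hepatocyte markers of this species were not called in GFP+ cells. fabp10a encodes a fatty acid-binding protein of hepatocytes and scored 3.67, 3.69 and 3.64 at 3 dpf, against 2.87, 2.34 and 2.96 at 2 dpf, and its difference of 0.94 ± 0.24 was not called (adjusted p = 0.0888). The transferrin gene tfa scored 3.49, 3.56 and 3.48 at 3 dpf, against 3.46, 3.24 and 3.3 at 2 dpf (difference 0.17 ± 0.22). Both genes rose in GFP- cells, where fabp10a scored 1.98, 2.3 and 1.27 at 3 dpf, against -0.13, -0.40 and -0.01 at 2 dpf. tfa scored 2.68, 2.63 and 1.99 in GFP- cells at 3 dpf, against 1.43, 0.56 and 1.01 at 2 dpf. Liver transcripts were thus measured outside the gate too, and their source was not tested. ahsg1, a fetuin gene, stayed below the array median at both ages and averaged 1.82 at 6 dpf.

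**Figure D2:**
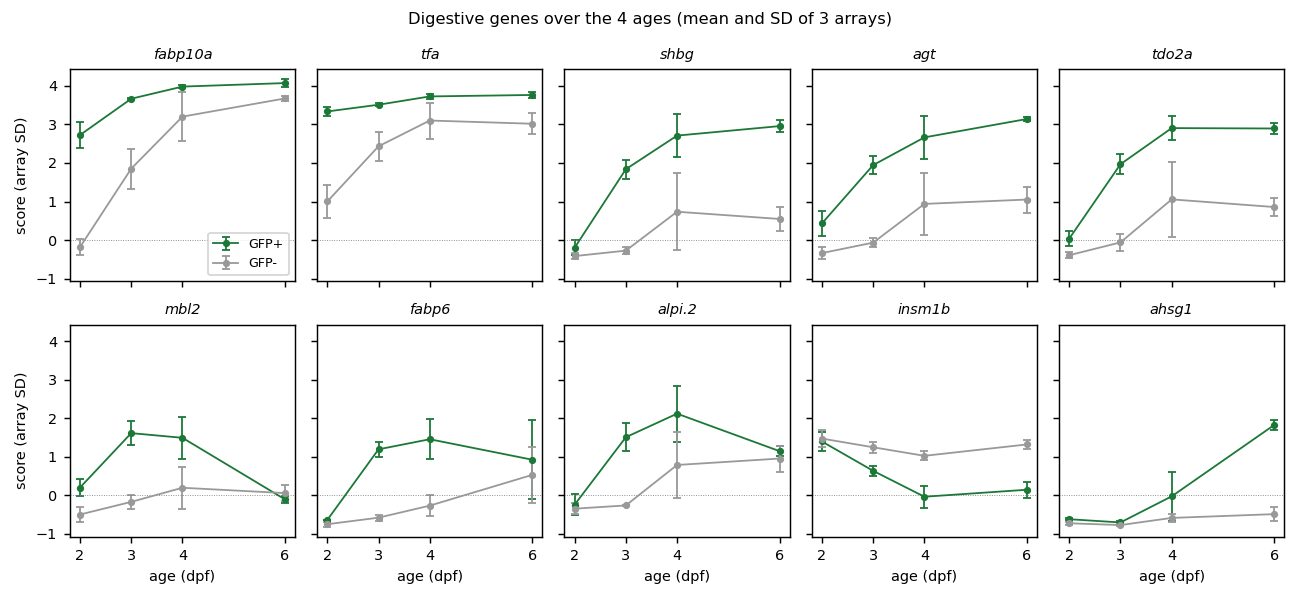
Mean scores (y axis, array SD) of 10 genes described in the text at 2, 3, 4 and 6 dpf (x axis) in GFP+ and GFP- cells, with bars for the SD of 3 arrays. fabp10a and tfa are high in GFP+ cells from 2 dpf, shbg, agt and tdo2a climb between 2 and 3 dpf, and ahsg1 is below 0 until after 3 dpf.

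In coagulation and complement, 2 of 25 genes rose, none fell, beside 0.682% of all genes higher, and the median difference was 0.44. mbl2 encodes a mannose-binding lectin that starts complement, and it scored 1.77, 1.81 and 1.25 at 3 dpf, against 0.09, 0.06 and 0.45 at 2 dpf (difference 1.41 ± 0.25, adjusted p = 0.00451). The terminal complement gene c8b scored 1.3, 1.34 and 0.98 at 3 dpf, against 0.53, -0.21 and 0.26 at 2 dpf (difference 1.02 ± 0.23, adjusted p = 0.0406). The call of mbl2 held with each array left out, and its mean was 1.49 at 4 dpf and -0.11 at 6 dpf. That of c8b was lost without 3 dpf array 1 or 2 or 2 dpf array 2 or 3 (adjusted p of 0.0993 to 0.303), and on the 6 compared arrays alone (adjusted p = 0.079). The fibrinogen gene fgb was at 2.80, 2.65 and 2.4 at 3 dpf, against 1.6, 1.54 and 2.12 at 2 dpf (difference 0.86 ± 0.37, adjusted p = 0.476).

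In apolipoproteins and lipid transport, 2 of 24 genes rose, none fell, beside 0.682% of all genes higher, and the median difference was 0.49. One of these, fabp6, also stands in the intestinal list and is described there. apoa4b.2, an apolipoprotein A-IV gene, scored 2.65, 2.59 and 2.29 at 3 dpf, against 1.07, 1.22 and 1.46 at 2 dpf (difference 1.26 ± 0.27, adjusted p = 0.0256). Its call was lost without 3 dpf array 1 or 2 or without 2 dpf array 1 or 2 (adjusted p of 0.112 to 0.146). The apolipoprotein gene apoa2 was not called, with 3.83, 3.80 and 3.86 at 3 dpf, against 3.62, 3.50 and 3.73 at 2 dpf (difference 0.22 ± 0.19).

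Catabolic lists held at most 1 call each, beside 0.682% of all genes called higher. A single call is given for the gene, not for the list. Of 23 genes of amino acid catabolism 1 rose, with a median of 0.32. This was tdo2a, which encodes tryptophan 2,3-dioxygenase of the liver and scored 2.12, 2.11 and 1.67 at 3 dpf, against -0.01, -0.12 and 0.24 at 2 dpf (difference 1.93 ± 0.30, adjusted p = 0.00131). Its call held with each array left out, and it went on to a mean of 2.90 at 4 dpf. Of 12 genes of purine, urate and peroxisome metabolism 1 rose, with a median of 0.55. phyh, which acts in peroxisomal breakdown of branched fatty acids, scored 0.75, 0.80 and 0.32 at 3 dpf, against 0.14 and 2 values near 0 at 2 dpf (difference 0.58 ± 0.13, adjusted p = 0.0406). Of 35 cytochrome P450 and conjugation genes 1 rose, with a median of 0.30. This was cyp2aa1, with 0.65, 0.44 and 0.19 at 3 dpf, against -0.40, -0.20 and -0.14 at 2 dpf (difference 0.67 ± 0.15, adjusted p = 0.0378). The call of phyh was lost without any of the arrays other than 3 dpf array 3 (adjusted p of 0.0608 to 0.251), and so was that of cyp2aa1 (adjusted p of 0.0678 to 0.276). On the 6 compared arrays alone, phyh (adjusted p = 0.153) and cyp2aa1 (adjusted p = 0.0906) were not called. None of 21 genes of glycogen, glucose and fructose metabolism was called by limma, with 7 higher and 2 lower at an unadjusted p under 0.05. The nearest was the glucose 6-phosphate transporter slc37a4a, with a difference of 0.89 ± 0.21 (adjusted p = 0.0586). At the same unadjusted threshold, 9 of the 12 purine, urate and peroxisome genes were higher and none lower. So were 17 of the 35 cytochrome P450 and conjugation genes, again with none lower. Amino acid catabolism had 5 of 23 higher and 1 lower, beside 421 higher and 512 lower of all 8793 genes.

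Several of the largest increases lay outside these lists. crp3, named as a C-reactive protein gene, scored 2.48, 2.11 and 2.1 at 3 dpf, against -0.44, -0.48 and -0.49 at 2 dpf (difference 2.70 ± 0.29, adjusted p = 8.74e-05). ces2a encodes a carboxylesterase and scored 2.45, 2.14 and 2.29 at 3 dpf, against -0.20, -0.15 and 0.06 at 2 dpf (difference 2.39 ± 0.29, adjusted p = 0.00028). Both were well separated, and their calls held with each array left out.

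Of 30 genes of intestinal epithelium and transport, 3 rose, against 0.682% of all genes, none fell, and the median difference was 0.41. fabp6, the ileal bile acid-binding protein gene, scored 1.34, 1.27 and 0.96 at 3 dpf, against -0.65, -0.65 and -0.63 at 2 dpf (difference 1.83 ± 0.37, adjusted p = 0.0167). chia.2, an acidic chitinase gene, scored 1.71, 1.34 and 1.04 at 3 dpf, against -0.46, -0.49 and -0.35 at 2 dpf (difference 1.79 ± 0.33, adjusted p = 0.00691). alpi.2 encodes intestinal alkaline phosphatase of the brush border and scored 1.71, 1.72 and 1.08 at 3 dpf, against 0.06, -0.45 and -0.34 at 2 dpf (difference 1.75 ± 0.34, adjusted p = 0.0111). All 3 crossed from near or below the array median at 2 dpf to above it at 3 dpf, without overlap. None of the 3 calls held in every fit that left out 1 array. The call of chia.2 was lost without 3 dpf array 1 (adjusted p = 0.0643), and that of alpi.2 without 3 dpf array 1 or 2 or 2 dpf array 2 (adjusted p of 0.0815 to 0.0871). That of fabp6 was lost without any array other than 3 dpf array 3 (adjusted p of 0.0537 to 0.106) and on the 12 GFP+ arrays alone (adjusted p = 0.0852). Over all alternatives the differences lay at 1.62 to 1.96 in chia.2, 1.64 to 1.96 in alpi.2 and 1.76 to 1.95 in fabp6.

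The enterocyte genes of the markers used here were not called. fabp2, the intestinal fatty acid-binding protein gene, scored 3.24, 2.84 and 3.14 at 3 dpf, against 2.80, 2.28 and 2.71 at 2 dpf (difference 0.48 ± 0.31, adjusted p = 0.803). The claudin gene cldn15la scored 2.74, 2.52 and 2.56 at 3 dpf, against 2.50, 2.24 and 2.66 at 2 dpf, and the ages overlapped. The peptide transporter gene slc15a1b was not called, with 0.71, 0.53 and 0.05 at 3 dpf, against -0.17, -0.61 and -0.33 at 2 dpf (difference 0.80 ± 0.27, adjusted p = 0.259).

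Of 16 genes of islet hormones and endocrine factors none rose and 1 fell, against 0.409% of all genes called lower. The median difference was -0.28. insm1b, a transcription factor of endocrine precursors, scored 0.53, 0.59 and 0.78 at 3 dpf, against 1.27, 1.24 and 1.67 at 2 dpf (difference -0.76 ± 0.15, adjusted p = 0.0144). The ages did not overlap, and the call was lost without 3 dpf array 1 or 2 or 2 dpf array 3 (adjusted p of 0.0839 to 0.107). It was also lost on the 6 compared arrays alone (adjusted p = 0.0625) and on the 12 GFP+ arrays alone (adjusted p = 0.0842), so that no islet gene was called there. The insulin gene ins scored 1.79, 1.2 and 2.55 at 3 dpf, against 2.33, 3.04 and 2.88 at 2 dpf, and was not called (difference -0.91 ± 0.33, adjusted p = 0.318). The somatostatin gene sst2 scored 1.22, 1.16 and 2.17 at 3 dpf, against 1.82, 2.34 and 2.85 at 2 dpf (difference -0.82 ± 0.32, adjusted p = 0.393). In both hormones the third 3 dpf array lay within the 2 dpf range. The glucagon gene gcga scored 2.57, 3.03 and 3.02 at 3 dpf, against 3.12, 3.01 and 3.17 at 2 dpf (difference -0.22 ± 0.24).

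Of 32 measured transcription factors of the endoderm, none rose and 1 fell, against 0.409% of all genes called lower. The differences had a median of -0.06 and a range of -0.62 to 0.57. The hepatic and intestinal regulator hnf4a scored 0.42, 0.60 and 0.12 at 3 dpf, against 0.49, 0.57 and 0.03 at 2 dpf (difference 0.01 ± 0.14). gata6 scored 1.48, 1.49 and 1.21 at 3 dpf, against 1.6, 1.54 and 1.55 at 2 dpf (difference -0.17 ± 0.17). ptf1a, the acinar fate regulator, scored 0.01, 0.08 and -0.51 at 3 dpf, against -0.50, -0.28 and -0.52 at 2 dpf (difference 0.29 ± 0.24), and the ages overlapped. The nuclear receptor hnf4b came nearest to a call upward, with 0.77, 0.69 and 0.58 at 3 dpf, against 0.37, -0.21 and 0.17 at 2 dpf (difference 0.57 ± 0.14, adjusted p = 0.0648). The gene that fell was nr2f5, an orphan nuclear receptor, with 0.78, 0.36 and 0.68 at 3 dpf, against 1.11, 1.27 and 1.28 at 2 dpf (difference -0.62 ± 0.13, adjusted p = 0.0191). Its call was lost without 3 dpf array 2, 2 dpf array 2 or 2 dpf array 3 (adjusted p of 0.0843 to 0.149), and on the 6 compared arrays alone (adjusted p = 0.0929).

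Genes of the secretory machinery and of cell division held no calls in GFP+ cells. None of 65 genes of ER translocation, folding and secretion was called by limma, 8 were higher and none lower at an unadjusted p under 0.05, and the median difference was 0.12. The largest was dnajc3a, an ER co-chaperone, at 0.75 (adjusted p = 0.300). xbp1, a transcription factor of the unfolded protein response, scored 2.06, 1.42 and 1.86 at 3 dpf, against 1.66, 1.61 and 1.76 at 2 dpf. None of 68 genes of DNA replication and mitosis was called, with 11 lower and none higher at an unadjusted p under 0.05, and a median of -0.12. In GFP- cells 25 of these 68 genes fell between the ages and 1 rose, against 2.17% and 3.06% of all genes and 4.83% of all probe sets called in GFP- cells, with a median of -0.47. Cytosolic ribosomal proteins (73 genes, median -0.09), ribosome biogenesis (39 genes, median -0.17), the respiratory chain (60 genes, median 0.09) and the spliceosome (65 genes, median -0.15) had no call in GFP+ cells. At an unadjusted p under 0.05, 12 spliceosome genes, 5 ribosome biogenesis genes and 1 ribosomal protein gene were lower and 4 respiratory genes were higher. These counts, and those of the secretory and replication lists above, stand beside 421 higher and 512 lower of all 8793 genes.

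**Figure D3:**
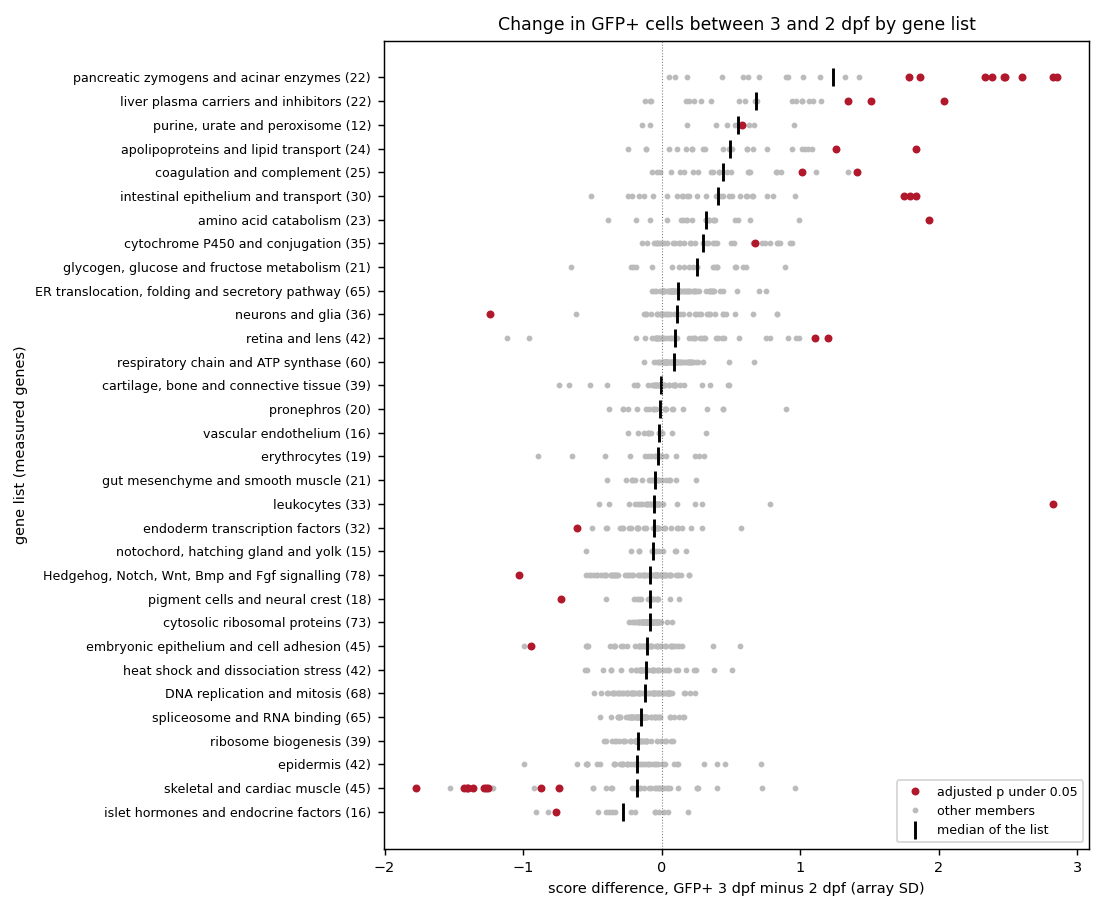
Difference of scores between GFP+ cells of 3 and 2 dpf (x axis, array SD) for each measured gene of 32 lists (y axis, ordered by median), with called genes in red and a black bar at the list's median. Pancreatic enzymes have the highest median, 1.23, islet genes the lowest, -0.28, and the red points below 0 lie mostly in the muscle list. The red point in the leukocyte list is cpa5, which is also a pancreatic enzyme.

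The genes that fell differed in role. ascl1a, a proneural transcription factor, scored -0.14, -0.18 and -0.04 at 3 dpf, against 0.80, 1.00 and 1.57 at 2 dpf (difference -1.24 ± 0.19, adjusted p = 0.00154). olfm3a encodes an olfactomedin domain protein and scored -0.40, -0.62 and -0.10 at 3 dpf, against 0.78, 0.59 and 1.18 at 2 dpf (difference -1.22 ± 0.17, adjusted p = 0.000619). In both genes every 3 dpf array lay below the array median and every 2 dpf array above it. her9, a hairy-related repressor, scored 0.60, 0.25 and 0.50 at 3 dpf, against 1.26, 1.53 and 1.66 at 2 dpf (difference -1.03 ± 0.19, adjusted p = 0.00589). The 78 genes of Hedgehog, Notch, Wnt, Bmp and Fgf signalling had a median of -0.08. Their single call was her9, against 0.409% of all genes called lower. Its call was lost without 3 dpf array 2 (adjusted p = 0.0587), while those of ascl1a and olfm3a held with each array left out.

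Cell surface and matrix genes were among the rest. lamb1a, a laminin chain of the basement membrane, scored 0.69, 0.48 and 0.97 at 3 dpf, against 1.68, 1.6 and 1.69 at 2 dpf (difference -0.94 ± 0.11, adjusted p = 0.00028). lamb1a was the 1 call among 45 genes of embryonic epithelium and adhesion, against 0.409% of all genes called lower. It also fell in GFP- cells, by 0.70 array SD (adjusted p = 0.00085). efna5a, an ephrin ligand, scored 0.13, 0.24 and 0.51 at 3 dpf, against 1.04, 1.48 and 1.33 at 2 dpf (difference -0.99 ± 0.15, adjusted p = 0.0011). This is 1 of 3 probe sets of efna5a and the 1 that was called. The smallest difference among the 3 was -0.07, and their mean gave -0.39 (adjusted p = 0.0213). oc90, an otolith matrix protein gene of the inner ear, scored -0.58, -0.66 and -0.44 at 3 dpf, against 0.10, 1.59 and 1.25 at 2 dpf (difference -1.54 ± 0.23, adjusted p = 0.00115). The 2 dpf arrays of oc90 were themselves far apart, and on the 6 arrays alone the gene was not called (adjusted p = 0.123). Lens crystallin genes were split in the same way on the 2 dpf arrays, as given for cryba4 above. The genes crtap and pdlim7 were also among the 15 largest falls. At 3 dpf crtap scored 0.36, -0.01 and 0.98, against 1.21, 1.62 and 1.41 at 2 dpf (difference -0.97 ± 0.18, adjusted p = 0.00797). For pdlim7 these were -0.24, -0.24 and 0.18, against 0.97, 0.86 and 0.77 (difference -0.97 ± 0.21, adjusted p = 0.0232). The call of crtap was lost in 3 of 6 fits that each left out 1 array, and that of pdlim7 in 5.

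Muscle genes were 10 of the 36 genes called lower. Of 45 measured genes of skeletal and cardiac muscle, 10 fell and none rose, against 0.409% of all genes called lower, and the median difference was -0.18. The list was mixed, with differences above 0 in 12 of the 45 genes, against 3404 of all 8793. At an unadjusted p under 0.05, 18 of the 45 were lower and 2 higher, beside 512 and 421 of all 8793 genes. In 19 of the 45 every 3 dpf array was below every 2 dpf array, which held for 9.61% of all genes. mylpfa, a fast myosin light chain, scored 0.13, -0.26 and 0.73 at 3 dpf, against 1.58, 2.31 and 2.04 at 2 dpf (difference -1.78 ± 0.27, adjusted p = 0.00122). The muscle creatine kinase gene ckma scored -0.08, 0.03 and 0.48 at 3 dpf, against 1.26, 1.57 and 1.35 at 2 dpf (difference -1.25 ± 0.16, adjusted p = 0.000371). The sarcoplasmic calcium pump gene atp2a1 scored -0.64, -0.63 and -0.29 at 3 dpf, against 0.42, 1.15 and 1.07 at 2 dpf (difference -1.40 ± 0.19, adjusted p = 0.000371). The ages did not overlap in these 3 genes, and their calls held with each array left out. Those of tpma and ckmb did too. myhz1.3 was lost with every array left out but 2 dpf array 1 (adjusted p of 0.07 to 0.253). tnni2a.4 was lost without 3 dpf array 1 or 2 or 2 dpf array 2 or 3 (adjusted p of 0.102 to 0.179), and mylz3 without 3 dpf array 1 (adjusted p = 0.0593). On the 6 compared arrays alone, myhz1.3 (adjusted p = 0.229), tnni2a.4 (adjusted p = 0.154) and ckmb (adjusted p = 0.0556) were not called.

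Muscle scores moved in GFP- cells as well. There, 10 of the 45 genes fell and 1 rose, against 2.17% and 3.06% of all genes, with a median of -0.44. mylpfa scored 1.51, 1.22 and 2.12 in GFP- cells at 3 dpf, against 2.53, 1.81 and 2.11 at 2 dpf (difference -0.53, adjusted p = 0.40). The change of mylpfa in GFP+ cells minus that in GFP- cells was -1.24 ± 0.38 (adjusted p = 0.168), so a difference between the gates was not called. For myhz1.3 it was 0.03 and for atp2a1 -0.40. Of the 45 genes, none was called with a change more negative in GFP+ than in GFP- cells and 1 with a change more positive. Over all genes the shares were 0.546% and 0.205%, so few calls could be looked for among 45 genes and the absence says little. The mean score over the 45 genes was -0.01, -0.09 and 0.13 on the 3 dpf GFP+ arrays, against 0.22, 0.49 and 0.54 on the 2 dpf GFP+ arrays. Of the 45 genes, 7 were below the lower quartile of their array on all 3 GFP+ arrays at 3 dpf, against 2 at 2 dpf. The same share over all genes was not counted. The other called muscle genes had differences between -1.43 (myhz1.3) and -0.74 (neb). The part of muscle cells in the GFP+ sample was not tested.

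**Figure D4:**
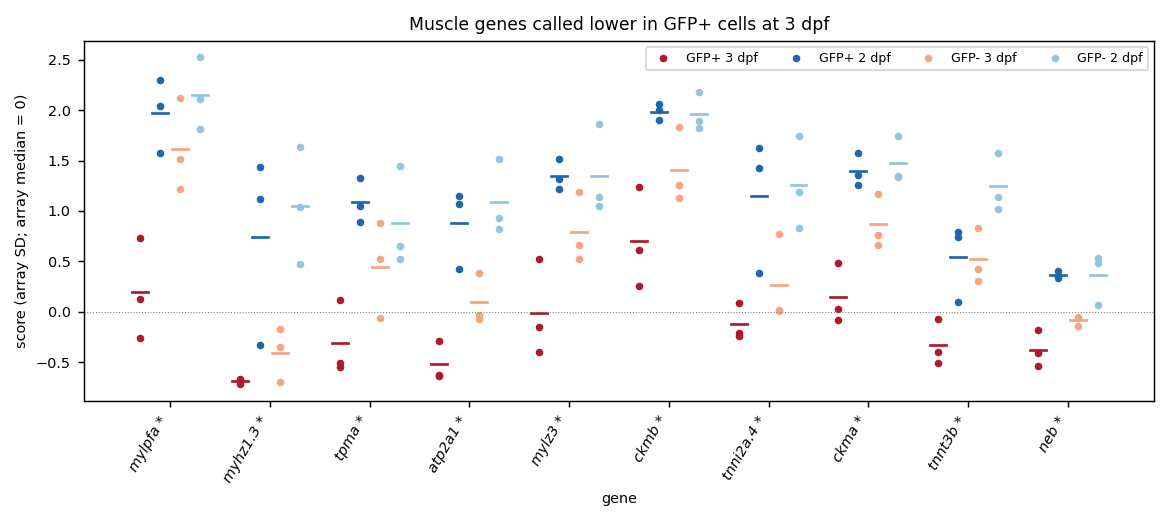
Scores (y axis, array SD) of the 10 muscle genes called lower in GFP+ cells (x axis, ordered by difference) on each array, in the order GFP+ 3 dpf, GFP+ 2 dpf, GFP- 3 dpf and GFP- 2 dpf, with lines at group means. In mylpfa the GFP+ arrays of 3 dpf lie at -0.26 to 0.73, below those of 2 dpf at 1.58 to 2.31.

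Calls among markers of further tissues are set beside 0.682% of all genes called higher and 0.409% called lower. The neuronal gene elavl3 was not called and scored 0.70, 0.90 and 0.77 at 3 dpf, against 0.38, 0.89 and 0.37 at 2 dpf. Among 36 genes of neurons and glia, ascl1a fell and none rose, but the list as a whole leaned upward. Its median difference was 0.11, and differences were above 0 in 25 of the 36 genes, against 3404 of all 8793. At an unadjusted p under 0.05, 5 of the 36 were higher and 2 lower, beside 421 and 512 of all genes. Retina and lens genes held 2 calls among 42 genes, both of cone photoreceptors. gnat2, the cone transducin subunit, scored 1.18, 0.88 and 0.45 in GFP+ cells at 3 dpf, against -0.19, -0.20 and -0.41 at 2 dpf (difference 1.11 ± 0.24, adjusted p = 0.0252). gnb3b scored 1.15, 0.68 and 0.42 at 3 dpf, against -0.35, -0.58 and -0.40 at 2 dpf (difference 1.2 ± 0.21, adjusted p = 0.00475). In GFP- cells of 3 dpf the same genes were at 2.64, 2.99 and 2.82 and at 2.47, 2.86 and 2.65. The mean score over the 42 retina and lens genes was 0.12, 0.15 and -0.01 at 3 dpf, against -0.02, -0.15 and -0.19 at 2 dpf in GFP+ cells. The part of eye cells in the GFP+ sample was not tested. The call of gnat2 was lost without any array other than 3 dpf array 3 (adjusted p of 0.06 to 0.196) and on the 12 GFP+ arrays alone (adjusted p = 0.106), and that of gnb3b without 3 dpf array 1 (adjusted p = 0.052). Epidermis (42 genes), connective tissue (39), gut mesenchyme (21), erythrocytes (19), endothelium (16), pronephros (20) and notochord, hatching gland and yolk (15) had no call by limma. Among 18 pigment cell and neural crest genes the purine synthesis gene paics fell, by 0.73 array SD (adjusted p = 0.00866). It lost its call without 3 dpf array 2 or 2 dpf array 3 (adjusted p of 0.0627 to 0.0852) and on the 6 compared arrays alone (adjusted p = 0.111).

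The change in GFP+ cells was then set against the change in GFP- cells over the same ages, since a difference shared by both is not particular to the gate. This test called 110 of 15502 probe sets (0.71%), 26 of them (0.168%) with a change more positive in GFP+ than in GFP- cells and 84 (0.542%) with a change more negative. The sign is that of a difference of changes and is not by itself a direction in GFP+ cells. Without adjustment 1305 had a p under 0.05. cpa5 had a change of 2.83 in GFP+ cells and 0.13 in GFP- cells, a difference of 2.69 ± 0.59 (adjusted p = 0.0355). crp3 had a change of 2.70 in GFP+ cells and 0.62 in GFP- cells, a difference of 2.08 ± 0.41 (adjusted p = 0.0171). The other named genes with a change more positive in GFP+ than in GFP- cells were the carboxypeptidase N gene cpn1 (1.62 ± 0.37), the retinol dehydrogenase gene dhrs9 (1.53 ± 0.31), the steroid reductase gene srd5a2a (1.45 ± 0.29) and the creatine kinase gene ckba (1.33 ± 0.27).

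The change of cpn1 in GFP+ cells was itself not called, at 1.07 (adjusted p = 0.0586), beside -0.55 in GFP- cells. Over the 12 fits that each left out 1 array, cpa5 lost its call in 11, cpn1 in 10, dhrs9 in 5, ckba in 4 and crp3 and srd5a2a in 2 each. Of the 9 enzyme genes that rose in GFP+ cells, cpa5 alone was called for the difference between gates. It stands in the leukocyte list too. In GFP- cells cpa5 scored 0.72, 0.82 and 0.33 at 3 dpf, against 0.23, 0.25 and 0.99 at 2 dpf. The part of leukocytes in these scores was not tested. ela2l had a difference of 2.14 ± 0.59 (adjusted p = 0.112) and ela3l of 2.02 ± 0.48 (adjusted p = 0.057). ctrb.1 rose in GFP- cells too, by 1.38 (adjusted p = 0.013), and prss1 rose there by 1.65 (adjusted p = 0.002). Of the 68 genes of DNA replication and mitosis, 3 were also called with a change more positive in GFP+ than in GFP- cells. This compares with 0.205% of all genes, and the 3 were chosen after their values were seen. One is top2a, a topoisomerase, which scored 0.82, 0.99 and 0.84 in GFP+ cells at 3 dpf, against 0.78, 0.82 and 0.57 at 2 dpf. In GFP- cells it scored 0.21, 0.26 and 0.21 at 3 dpf, against 0.78, 1.21 and 1.1 at 2 dpf (difference between gates 0.96 ± 0.15, adjusted p = 0.00321).

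Of the 42 retina and lens genes, 9 were called with a change more negative in GFP+ than in GFP- cells, against 0.546% of all genes. The cone phosphodiesterase gene pde6c scored 0.56, -0.45 and -0.28 in GFP+ cells at 3 dpf, against -0.34, -0.51 and -0.55 at 2 dpf. In GFP- cells it scored 2.35, 3.01 and 2.50 at 3 dpf, against -0.51, -0.81 and -0.75 at 2 dpf, a difference between gates of -2.90 ± 0.38 (adjusted p = 0.00114). The cone opsin genes opn1sw2, opn1sw1 and opn1mw1 had differences of -2.46 ± 0.42, -2.44 ± 0.40 and -2.39 ± 0.36. olfm3a fell in GFP+ cells and had a change of 0.29 in GFP- cells, a difference of -1.51 ± 0.24 (adjusted p = 0.00371).

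**Figure D5:**
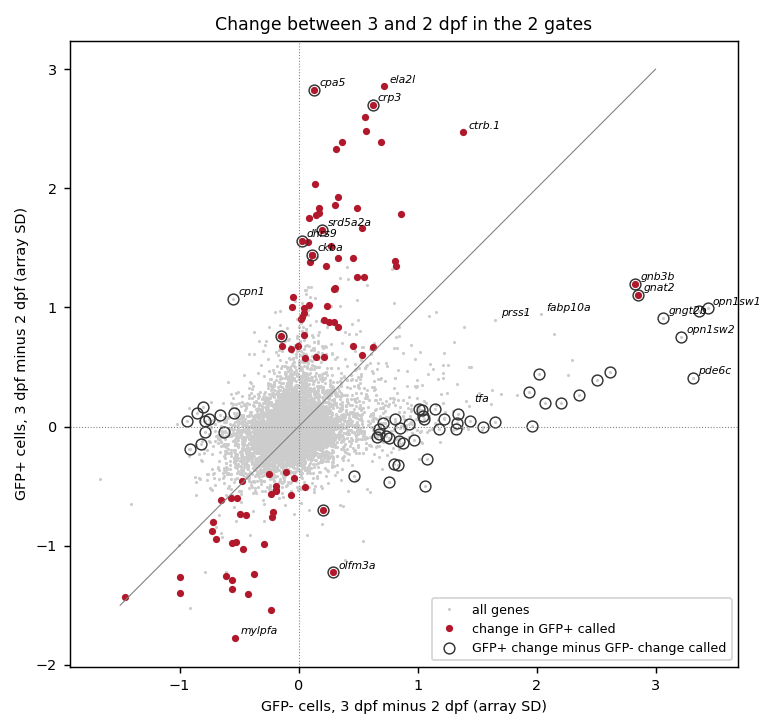
Change of each gene's score between 3 and 2 dpf in GFP- cells (x axis) and GFP+ cells (y axis), in array SD, with the diagonal of equal change. Red points are genes called in GFP+ cells and open circles are genes called for the difference between gates. cpa5, at 0.13 on the x axis and 2.83 on the y axis, lies far above the diagonal, and pde6c, at 3.31 and 0.41, far below it.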

How the data were processed

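Total RNA of sorted cells was SPIA amplified, and the biotin-labelled cDNA was measured on Affymetrix zebrafish arrays, per the labels' protocols. The deposited values are scores per probe set and array from the authors. RMA is named in the submitters' processing notes, while the sources used here do not give the log base or how each array came to a median of 0 and an SD of 1.

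Of 15617 probe sets, 115 controls were left out. Symbols came from the platform annotation: 10795 probe sets had 1 symbol, 135 several and 4572 none, giving 8793 genes. limma 3.58.1 in R 4.3.3 fitted 8 group means to the 24 arrays, with two-sided moderated tests and Benjamini-Hochberg adjustment over 15502 probe sets, for the 3 minus 2 dpf difference in GFP+ cells and for its difference from that in GFP- cells. On simulated data of this layout, 92.5% of 67 changes of 1 array SD and 31.3% of 67 changes of 0.5 array SD were recovered for the first test, and 71.6% and 16.4% for the second. False calls were 3 of 151 calls for the first test and 10 of 134 for the second. The simulated noise was normal and independent, with each probe set's residual SD and no differences in quality between arrays. The changed probe sets were drawn at random, and the median standard error over all measured probe sets was 0.137. Digestive genes such as ela2l (0.42) and shbg (0.33) had larger errors. The rates therefore do not give the recovery for such genes, and a missing call there does not show that a gene was unchanged. An exact permutation of 3 arrays against 3 cannot go below 0.1. Nothing says whether replicates came from separate clutches, so the p-values cover this spread, which may be technical.

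Named genes are, placeholders passed over, the 15 largest called differences each way, the 6 largest called differences between gates each way and up to 5 called members each way of each list, with defining markers given whether or not called. The comparison, the 32 lists and the named genes rule were chosen with earlier results of these data known. Same-numbered 3 and 2 dpf arrays had residual correlations of -0.444, 0.125 and -0.25, so the numbers were not taken as pairs. Alternatives were other subsets of arrays, quantile normalization, a filter on mean score, weights per array, a robust prior with a trend, the replicate number as a block, averaging the probe sets of a gene, a minimum difference and leaving out each array.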

Additional observations from a re-analysis of the deposited data

Results flagged for a closer look

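For 15 named genes the change between 3 and 2 dpf in GFP+ cells differed from the change in GFP- cells by the test of that difference, with values in array SD. The change was more positive in GFP+ than in GFP- cells for cpa5 (2.69), crp3 (2.08), cpn1 (1.62), dhrs9 (1.53), srd5a2a (1.45) and ckba (1.33). It was more negative in GFP+ than in GFP- cells for the photoreceptor genes pde6c (-2.90), opn1sw2 (-2.46), opn1sw1 (-2.44), opn1mw1 (-2.39), pde6hb (-2.16), gngt2b (-2.15), gnat2 (-1.75) and gnb3b (-1.63). olfm3a (-1.51) fell in GFP+ cells and was below the array median on all 6 GFP- arrays. gnat2 and gnb3b rose in both gates.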

How the results depend on the processing

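The count of 128 called probe sets became 479 with array weights (288 higher, 191 lower) and 72 with a minimum difference of 1 array SD, and it ranged from 58 to 153 with 1 array left out. It was 61 without 3 dpf array 1, 58 without 3 dpf array 2 and 62 without 2 dpf array 2. On the 6 arrays alone it was 146, of which 122 were higher and 24 lower, and 85 of the 128 were called again. The replicate number as a block gave 122 calls, and the numbers did not pair the samples. A random block of age and number, which joins GFP+ and GFP- arrays, gave 128 calls with an estimated correlation of 0.00911. That block does not link 3 dpf with 2 dpf arrays. All 128 calls kept their direction in each of these fits where they were tested. The 110 calls for the difference between gates (26 more positive in GFP+ cells, 84 more negative) became 254 on the 12 arrays of 3 and 2 dpf alone (107 and 147), 402 with array weights (171 and 231) and 127 with age and replicate number as a block (49 and 78), where 77 of the 110 were called again. They ranged from 52 (11 and 41, without GFP- 2 dpf array 3) to 146 (24 and 122, without GFP- 2 dpf array 1) with 1 array left out, and were 57 (8 and 49) without GFP+ 3 dpf array 1. Pancreatic enzymes called higher numbered 7 to 14 and muscle genes called lower 6 to 16 over all alternatives. These tested 22 and 45 genes, except for the filter on mean score. With that filter, 11 of 21 enzyme genes were higher and 7 of 22 muscle genes lower, with a muscle median of -0.62. On the 6 arrays alone 1 muscle gene was called higher, and with array weights also 1. Liver plasma carriers and inhibitors called higher numbered 1 to 10 over the alternatives and intestinal genes 0 to 8, beside 3 each in the main fit. Among named genes, 107 alternative values of the difference lost the call and 593 kept it, 36 and 218 for the difference between gates, and none changed sign. The calls and the named genes were chosen on these same arrays, so an unchanged direction is no separate support. With a median standard error of 0.137 over all probe sets, differences of 0.5 array SD were mostly below what the test could call.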

Other observations

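Further genes that rose in GFP+ cells stood outside the named genes and were chosen after their values were seen. fkbp5, a co-chaperone of steroid receptors, scored 2.26, 2.25 and 1.92 at 3 dpf, against 1.16, 0.40 and 0.72 at 2 dpf (difference 1.39 ± 0.25, adjusted p = 0.00691). The deiodinase gene dio1, which acts on thyroid hormone, scored 0.83, 1.11 and 0.44 at 3 dpf, against -0.47, -0.13 and 0.02 at 2 dpf (difference 0.99 ± 0.21, adjusted p = 0.0229). The mitochondrial carrier gene ucp1 scored 0.65, 0.74 and 0.19 at 3 dpf, against -0.58, -0.73 and -0.59 at 2 dpf (difference 1.16 ± 0.22, adjusted p = 0.00917), and averaged 3.45 at 6 dpf. The peroxiredoxin gene prdx1 scored 1.95, 1.94 and 1.95 at 3 dpf, against 1.08, 1.33 and 1.14 at 2 dpf (difference 0.76 ± 0.10, adjusted p = 0.000371).

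Of the 128 called probe sets, 24 had no single gene symbol and are not described. Of the 60 genes that rose in GFP+ cells, 7 were also called higher in GFP- cells, against 3.06% of all genes. Of the 36 that fell, 13 were also called lower in GFP- cells, against 2.17% of all genes.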
